A study of Mus musculus with 2 samples.

Results

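The apelin and Cxcl12 systems were described here through 6 genes: the ligands Apela, Apln and Cxcl12 and the receptors Aplnr, Cxcr4 and Ackr3. They were chosen by gene symbol, and all 6 were among the 32285 genes measured. Accessible regions (peaks) within 50 kb of their transcription starts were added, which gave 107 of the 229480 peaks: 25 for Cxcr4, 17 each for Cxcl12 and Ackr3, and 16 each for Aplnr, Apela and Apln. Mouse embryos at embryonic day 7.0 (E7.0), in the course of gastrulation, had been pooled, and RNA and open chromatin were read from the same nuclei. There was 1 library for nuclear RNA and 1 for accessibility, which left every comparison without replicates and without a test. No treatment was named. The label entries for tissue, cell type and strain named sections of the gut, goblet cells and RedMUC298trTg, at odds with the title, the age and the protocol. In the kept nuclei, 8 goblet and intestinal marker genes together had 148 UMIs (unique molecules of RNA), or 1.02 per 1000000 UMIs (CPM), against 1627 CPM for 8 epiblast genes and 3462 for 10 genes of visceral endoderm. Decidua and immune lists had 13.5 and 4.02 CPM.

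Apela and apelin, the product of Apln, are secreted peptides that bind the same G protein-coupled receptor, Aplnr, and the Apela-Aplnr pair is known from fish for guiding mesendodermal cells during gastrulation. Cxcl12 is a chemokine that attracts cells through the receptor Cxcr4. Ackr3 is an atypical receptor that binds Cxcl12, recruits arrestin and removes the ligand from the surroundings without classical G protein signalling.

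The starts lay on the mm10 build, named in the submitters' processing notes. Apela (ENSMUSG00000079042) has starts from 65037172 to 65037336 on chromosome 8, Apln (ENSMUSG00000037010) starts at 48034853 on chromosome X, and Cxcl12 (ENSMUSG00000061353) has starts from 117168535 to 117168577 on chromosome 6. Among the receptors, Aplnr (ENSMUSG00000044338) starts at 85136225 on chromosome 2, and Cxcr4 (ENSMUSG00000045382) and Ackr3 (ENSMUSG00000044337) at 128592290 and 90203980 on chromosome 1. Apela, Apln and Cxcr4 lie on the minus strand of the RefSeq annotation, the others on the plus strand.

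RefSeq promoter sequence of GRCm38.p6 was matched for 5 of the 6 genes, all but Aplnr. The 150 bases before the RefSeq start are shown 5′ to 3′. They lie under the promoter peaks described further down, and the 5 stretches differ in base composition. For Cxcr4 the RefSeq start is 128592299, not the 128592290 given above. Capitals mark 3 sets of letters, read on both strands: TAAACA, the core of many forkhead sites, TATAAA, the TATA box, and CCGCCC, the GC box (GGGCGG where it lies on the other strand).
Apela, chr8:65037337-65037486, minus strand: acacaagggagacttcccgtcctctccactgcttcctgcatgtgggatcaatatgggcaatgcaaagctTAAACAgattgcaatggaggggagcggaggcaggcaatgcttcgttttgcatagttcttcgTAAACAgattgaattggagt
Apln, chrX:48034854-48035003, minus strand: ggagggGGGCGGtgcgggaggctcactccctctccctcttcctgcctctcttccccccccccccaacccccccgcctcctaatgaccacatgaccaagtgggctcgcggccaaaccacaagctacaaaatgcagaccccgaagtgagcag
Cxcl12, chr6:117168385-117168534, plus strand: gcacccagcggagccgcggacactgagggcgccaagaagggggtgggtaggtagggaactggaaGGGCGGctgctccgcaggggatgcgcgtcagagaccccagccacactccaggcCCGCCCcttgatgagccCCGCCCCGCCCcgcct
Cxcr4, chr1:128592300-128592449, minus strand: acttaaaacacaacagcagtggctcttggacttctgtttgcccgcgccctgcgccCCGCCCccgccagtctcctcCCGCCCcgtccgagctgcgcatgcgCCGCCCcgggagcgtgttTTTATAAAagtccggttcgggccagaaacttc
Ackr3, chr1:90203830-90203979, plus strand: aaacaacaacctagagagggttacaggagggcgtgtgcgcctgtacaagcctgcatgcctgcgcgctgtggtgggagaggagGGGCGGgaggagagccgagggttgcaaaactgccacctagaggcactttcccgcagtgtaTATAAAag

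The Apela stretch holds TAAACA at 2 places, with first bases 81 and 20 bases before the start. Of 32851 promoters, 12.0% hold these letters at least once in the 250 bases before the start and 1.33% at 2 or more places. Its GC content was 48.0%, against 58.0% for Ackr3, 63.3% for Cxcr4, 65.3% for Apln and 72.7% for Cxcl12. Over 250 bases the median of all promoters was 52.4%. In that window Apela had 48%, Ackr3 54%, Cxcr4 61.2%, Cxcl12 64.4% and Apln 65.2%. Cxcl12 has CCGCCC at 5 places in 250 bases, 1 of them beyond the stretch shown and 2 overlapping by 1 base. Cxcr4 has it at 3 places, Ackr3 and Apln at 1, and Apela at none. These letters occur in 32.7% of promoters, and at 2 or more places in 16.7%. TATAAA lies 8 to 3 bases before the Ackr3 start, and 30 to 25 bases before the Cxcr4 start, where a match on the other strand overlaps it at 32 to 27. It occurs in 12.4% of promoters. The letters AGATAA, known from sites of blood cell factors, and TCACAC, known from sites of T-box factors, were searched too and are not in these windows, against 9.99% and 12.3% of promoters. A match describes letters, not a bound site.

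Nuclei were placed in classes so that none of the 6 genes was read in groups it had helped to define. Other genes read below, and the peaks near them, were not left out, and some are naming markers. RNA was read in classes made from accessibility, clustered without the peaks near the 6 genes, and peaks were read in classes made from RNA, clustered without the 6 genes. Both sets of clusters were named from RNA of marker lists that hold none of the 6, and a name ending in "-like" means only that those markers led the cluster. Of 15341 barcodes, 12796 nuclei were kept (83.4%), at medians of 10471 UMIs and 17350 peak counts. The accessibility classes held 3641 epiblast-like nuclei, 1582 visceral endoderm-like, 1363 embryonic mesoderm-like, 1268 extraembryonic ectoderm-like and 1092 primitive streak-like. Smaller ones were anterior streak, node and definitive endoderm-like (986, called anterior streak-like below), haemato-endothelial progenitor-like (832), ectoplacental cone and giant cell-like (339) and parietal endoderm-like (26, too few to be ranked). A further 1667 stayed unnamed. RNA clusters gave a class that accessibility did not, 677 extraembryonic mesoderm-like nuclei, of which 369 lay in the haemato-endothelial accessibility class and 300 in the embryonic mesoderm class. The parietal endoderm-like RNA class joined clusters of 146 and 32 nuclei, and 150 of its nuclei lay in the visceral endoderm accessibility class. RNA levels are in CPM, a gene's UMIs per 1000000 UMIs of the class, and each 95% interval covers counting error alone. Less RNA per nucleus and fewer nuclei with any cannot be told apart in a class sum.

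Among the named accessibility classes of at least 50 nuclei, Apela and Cxcl12 RNA was highest in epiblast, streak and anterior streak nuclei. Receptor RNA varied by gene. Aplnr and Cxcr4 were highest in embryonic mesoderm and haemato-endothelial nuclei, followed by anterior streak nuclei. Ackr3 was highest in haemato-endothelial and anterior streak nuclei, and in embryonic mesoderm it was near its level elsewhere (5.20 against 5.41 CPM). The haemato-endothelial levels of Cxcr4 and Ackr3 depended on the partition. Apln followed neither the other ligands nor the receptors. It was highest in streak and visceral endoderm nuclei, low in epiblast, and as high in embryonic mesoderm as in anterior streak nuclei within counting error. Apela, the early peptide, was highest in the anterior streak-like class at 43.5 CPM (39.5 to 47.7). It stood at 22.2 CPM in primitive streak-like and 16.2 in epiblast-like nuclei, at 5.77 in embryonic mesoderm and 4.04 in haemato-endothelial nuclei, and between 1.497 and 2.93 in the 3 remaining classes. The order of the first 3 classes held beyond counting error, with the anterior streak 1.95-fold above the primitive streak (1.68 to 2.28) and that 1.37-fold above the epiblast (1.18 to 1.58). A class was singled out for a gene because the gene was highest there, so folds in it are descriptions. Apela was 4.76-fold above all other nuclei in the anterior streak-like class (4.26 to 5.30). That class had 2 of the 6 genes at least 2-fold higher, Apela and Ackr3, where 5.50% of 17686 genes with at least 50 UMIs were.

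Most of the anterior streak RNA of Apela came from ciliated nuclei. RNA cluster 12, with 378 nuclei led by the cilium genes Zbbx, Cfap44 and Spef2 and by Foxj1, a driver of motile cilia that is expressed in the node, had 105 CPM of Apela (95.3 to 115.5). Of those nuclei, 49.7% carried an Apela UMI, and the cluster held 424 of the 550 Apela UMIs of the RNA class. Cluster 8, 626 nuclei of the same class led by Pax7 and Cer1, had 18.4 CPM (15.3 to 21.9), so Apela differed within the class by more than the intervals. The unnamed cluster 16 of 153 nuclei, whose leading list was that of primordial germ cells with too few raised markers for a name, had 60.9 CPM (50.1 to 73.4). Of the nuclei in the anterior streak-like RNA class, 100 lay in the epiblast accessibility class, and there Apela stood at 100.8 CPM (82.7 to 121.8), against 11.9 in nuclei that were epiblast-like by both assays. Part of the epiblast-like level of Apela in accessibility classes therefore came from these nuclei.

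Apln, the gene of apelin, had a pair of separate sources. It was highest in primitive streak-like nuclei at 42.5 CPM (39.0 to 46.3) and next in visceral endoderm-like nuclei at 33.8 (31.4 to 36.3). The first was 1.26-fold above the second (1.12 to 1.41). In RNA classes the same levels were 34.7 and 34.8 CPM, so that order depended on the partition. Visceral endoderm, the epithelium on the outside of the embryo, held 31.2% of all Apln UMIs, the streak 22.1%. Anterior streak and embryonic mesoderm nuclei had 18.8 and 17.5 CPM, which did not differ beyond counting error (in RNA classes embryonic mesoderm was higher, at 21.5 against 15.3, or 1.41-fold, 1.16 to 1.72). Epiblast nuclei had 8.31, and the rest 4.31 to 6.41. Within visceral endoderm, RNA clusters 5 and 14 had 40.5 CPM (37.3 to 43.9) and 46.9 (38.2 to 57.2), while cluster 11, led by Rasgrf2, Tfec and Ltk among others, had 16.05 (12.9 to 19.7). Apln was therefore not even across that layer.

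Cxcl12, the chemokine, was highest in primitive streak-like nuclei at 68.0 CPM (63.5 to 72.8) and next in epiblast-like nuclei at 43.3 (41.2 to 45.4). Epiblast and streak nuclei together carried most Cxcl12 UMIs, 53.3% and 26.8%. Anterior streak nuclei had 16.6 CPM, and embryonic mesoderm nuclei 7.74. The level was 6.65 in haemato-endothelial nuclei, 4.16 in visceral endoderm, 3.04 in extraembryonic ectoderm and 2.78 in ectoplacental nuclei. A UMI was seen in 42.9% of streak nuclei and in 4.02% of extraembryonic ectoderm nuclei, taken as the background class because all 6 genes had few UMIs there and its median depth was high, at 12525 UMIs. After thinning each nucleus to 5000 UMIs the shares were 25.1% and 1.66%. In the streak-like class 3 of the 6 genes were at least 2-fold higher, Cxcl12 (3.98-fold, 3.67 to 4.31), Apln (3.08, 2.79 to 3.39) and Apela (2.10, 1.83 to 2.39), where 2.91% of all genes were. In the streak RNA class Apela was below that threshold, at 1.83-fold (1.61 to 2.07).

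Aplnr, the receptor of both peptides, was highest in embryonic mesoderm-like nuclei at 39.3 CPM (36.2 to 42.5) and in haemato-endothelial progenitor-like nuclei at 38.6 (34.5 to 43.0), levels that did not differ beyond counting error (ratio 1.02, 0.888 to 1.17). Anterior streak-like nuclei had 18.5 CPM and primitive streak-like nuclei 7.90. Epiblast nuclei had 2.76 and the 3 classes left 1.96 to 2.14, and neighbours in that group did not differ. A UMI of Aplnr was found in 33.1% of mesoderm-like nuclei (30.6 to 35.7) and in 2.52% of extraembryonic ectoderm nuclei (1.73 to 3.54). Thinned shares were 18.6% and 0.871%. In RNA classes the haemato-endothelial level was higher, at 55.3 CPM, against 43.2 in embryonic and 27.8 in extraembryonic mesoderm nuclei. The accessibility class named haemato-endothelial mixed both kinds, and within it nuclei with a haemato-endothelial RNA name had 55.4 CPM and those with an extraembryonic mesoderm name 25.7.

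Cxcr4, the signalling receptor of Cxcl12, was highest in embryonic mesoderm-like nuclei at 28.2 CPM (25.6 to 30.9) and in haemato-endothelial nuclei at 26.5 (23.1 to 30.2), levels that did not differ beyond counting error (ratio 1.06, 0.903 to 1.25), followed by anterior streak nuclei at 19.3 (16.7 to 22.1). The 5 other ranked classes had 1.55 to 3.52 CPM. Primitive streak nuclei, highest for the ligand, had 1.96 CPM (1.25 to 2.91), and 2.11% of them had a Cxcr4 UMI, against 2.13% of extraembryonic ectoderm nuclei. At 5000 UMIs a nucleus the shares were 1.14% (0.592 to 1.99) and 0.523% (0.192 to 1.13), with overlapping intervals. In embryonic mesoderm nuclei 22.9% had one. In the streak and embryonic mesoderm classes Cxcr4 thus stood at 1.96 and 28.2 CPM, and Cxcl12 at 68.0 and 7.74. Aplnr (5.82-fold, 5.24 to 6.46) and Cxcr4 (3.32-fold, 2.97 to 3.71) were the 2 of the 6 at least 2-fold higher in embryonic mesoderm, where 6.11% of all genes were. With 20 components the log2 fold of Cxcr4 there went from 1.73 to 0.91, under 2-fold. Cxcl12 and Apela were at least 2-fold lower there, with ratios of 0.336 and 0.469, where 15.2% of all genes were.

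RNA classes placed the highest Cxcr4 level in extraembryonic mesoderm, at 39.1 CPM (34.8 to 43.9), against 25.8 in embryonic mesoderm and 11.01 in haemato-endothelial nuclei. Nuclei with both names from the haemato-endothelial class had 10.8 CPM, and extraembryonic mesoderm nuclei inside that accessibility class 37.2. The 110 nuclei of that accessibility class with an embryonic mesoderm RNA name had 38.5 CPM (27.0 to 53.3). Of the 223 Cxcr4 UMIs in the class, 146 were in extraembryonic mesoderm nuclei, 37 in haemato-endothelial ones and 36 in embryonic mesoderm ones. In the anterior streak RNA class Cxcr4 and Apela lay in different clusters: cluster 8 had 27.6 CPM of Cxcr4 (23.8 to 31.8), while the ciliated cluster 12 had 2.23. Unnamed accessibility clusters held 26.6% of Cxcr4 UMIs. Among RNA clusters the highest Cxcr4 level was also in an unnamed one, cluster 9, whose 565 nuclei had 42.9 CPM (38.6 to 47.5) and a UMI in 37.7% of nuclei. That cluster was led by Sfrp5, Gckr, Fzd5 and others and stayed unnamed because anterior streak and parietal endoderm markers competed. Accessibility cluster 8, also led by Sfrp5 and Gckr among others, had all 10 visceral endoderm markers raised. Parietal endoderm markers competed there, and it stayed unnamed too. The low Cxcr4 level of the visceral endoderm-like class leaves that accessibility cluster out.

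Ackr3, the scavenging receptor, was highest in haemato-endothelial nuclei at 19.4 CPM (16.5 to 22.6) and in anterior streak nuclei at 15.8 (13.5 to 18.4), levels that did not differ beyond counting error. Embryonic mesoderm nuclei had 5.20 CPM and the other ranked classes 1.32 to 3.21. The unnamed accessibility nuclei, which are not ranked, had 9.58 CPM (8.12 to 11.2) and held 19.6% of Ackr3 UMIs. In the haemato-endothelial class 3 of the 6 genes were at least 2-fold higher, Aplnr (4.52-fold), Ackr3 (4.27-fold) and Cxcr4 (2.75-fold), where 6.43% of all genes were. These calls rested on the partition for 2 of the 3: in the haemato-endothelial RNA class Cxcr4 was 1.04-fold higher (0.732 to 1.43) and Ackr3 1.75-fold (1.19 to 2.49), while Aplnr was 6.03-fold higher (5.15 to 7.02). In accessibility classes the Ackr3 log2 fold of 2.10 was 0.87 with doublet calls kept and 0.91 with 20 components, both under 2-fold. RNA classes again put the highest level in extraembryonic mesoderm, at 21.6 CPM (18.4 to 25.2), and in the mixed accessibility class Ackr3 stood at 32.1 CPM in extraembryonic mesoderm nuclei and 9.38 in haemato-endothelial ones. Unlike Cxcr4, it was present in the ciliated cluster 12, at 19.6 CPM (15.5 to 24.4). Both Cxcl12 receptors were therefore high in extraembryonic mesoderm, Cxcr4 without much Ackr3 was found in embryonic mesoderm, and Ackr3 without much Cxcr4 in the ciliated nuclei.

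**Figure D1:**
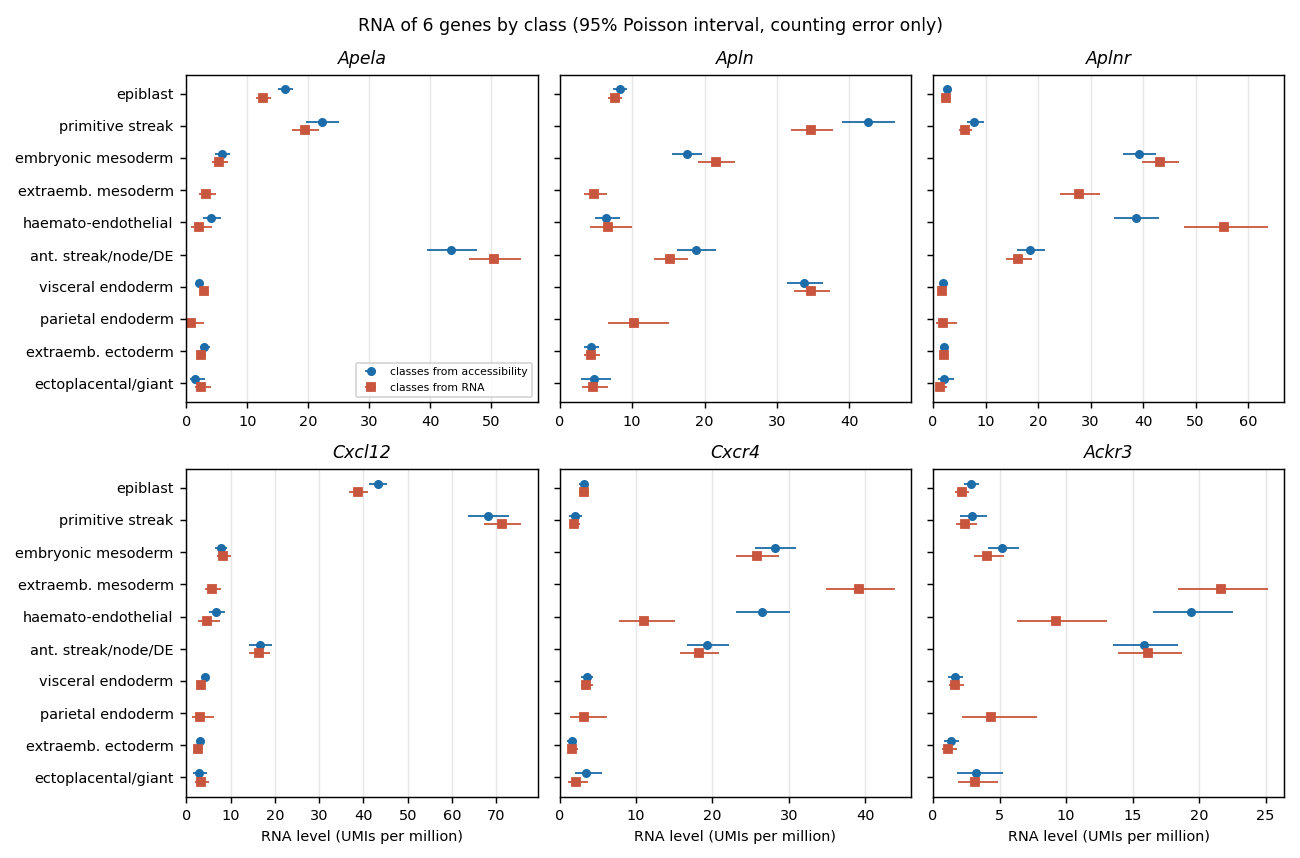
RNA of each gene (CPM, x axis) in each class (y axis), with circles for classes made from accessibility, squares for classes made from RNA and bars for 95% Poisson intervals. Apela peaks in the anterior streak class, Cxcl12 in streak and epiblast, Apln in streak and visceral endoderm, and Aplnr in mesoderm and haemato-endothelial classes. Cxcr4 peaks in mesoderm classes and, with classes from accessibility only, in the haemato-endothelial class too. Ackr3 peaks in haemato-endothelial and anterior streak classes from accessibility and in extraembryonic mesoderm from RNA.

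Ligand and receptor were then read in the same nucleus. Of all kept nuclei, 99 had UMIs of both Apela and Aplnr (0.774%, 0.629 to 0.941), and 98 of both Cxcl12 and Cxcr4 (0.766%, 0.622 to 0.933). With doublet calls kept these shares were 0.993% and 1.15%. Cxcl12 was seen in 8.65% of nuclei with a Cxcr4 UMI (7.08 to 10.4) and in 16.8% of those without (16.1 to 17.5). At 5000 UMIs a nucleus, over 11187 nuclei, these shares were 4.73% and 9.36%. Within embryonic mesoderm-like nuclei they were 6.09% and 7.14%, with intervals that overlap (3.71 to 9.35 and 5.65 to 8.86). Overlap of separate intervals does not test a difference, so whether the gap over all nuclei held inside that class was not tested. In anterior streak nuclei Cxcl12 was in 9 of 150 nuclei with Cxcr4 (2.78 to 11.1%) and in 14.1% of those without (11.8 to 16.7), intervals that do not overlap. These shares were not thinned to equal depth, and the RNA class of that name joins clusters 8 and 12, which differed in Cxcr4. In the other named classes with at least 5 nuclei of both genes the intervals overlapped. There the shares were 28.6% with Cxcr4 and 29.9% without in epiblast nuclei, 43.5% and 42.8% in streak nuclei, 4.17% and 5.72% in haemato-endothelial nuclei, and 7.94% and 4.87% in visceral endoderm.

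Apela was seen in 8.62% of nuclei with Aplnr and 9.35% of those without, a difference within the intervals. In the anterior streak-like class, where both genes reached sizeable levels, 31 of 986 nuclei had both (3.14%, 2.15 to 4.43), and Apela was in 19.9% of nuclei with Aplnr (13.9 to 27.0) and in 25.8% of those without (22.8 to 28.9). In embryonic mesoderm 73 nuclei had Apln with Aplnr (5.36%, 4.22 to 6.69), and the Apln share was 16.2% with the receptor and 15.1% without. The intervals overlapped inside these classes, and whether either peptide differed in nuclei with the receptor was not tested. Receptor pairs were read the same way. Cxcr4 was in 24.4% of nuclei with Ackr3 (21.1 to 28.03) and in 8.07% of those without (7.59 to 8.57), and at equal depth in 11.1% and 4.37%. Within haemato-endothelial nuclei, which mix both RNA names, the shares were 34.95% (25.8 to 44.98) and 18.1% (15.4 to 21.1). The intervals overlapped in embryonic mesoderm, at 34.3% (23.3 to 46.6) and 22.3% (20.03 to 24.6), and in anterior streak nuclei, at 23.02% (15.99 to 31.4) and 14.1% (11.8 to 16.6). In unnamed nuclei, with 48 of the 150 nuclei that had both, they did not, at 40.0% (31.2 to 49.3) and 13.3% (11.7 to 15.1). That group pools unlike clusters, with median depths from 1839 to 14002 UMIs, and its shares were not thinned. Aplnr was in 19.0% of nuclei with Cxcr4 (16.7 to 21.4) and in 8.00% of those without. In embryonic mesoderm these were 39.1% (33.7 to 44.8) and 31.3% (28.5 to 34.2), with overlapping intervals. In haemato-endothelial nuclei they were 27.98% (21.3 to 35.4) and 24.1% (20.9 to 27.5), and in anterior streak nuclei 10.7% (6.22 to 16.7) and 16.7% (14.3 to 19.5), the opposite direction, also overlapping. The Aplnr share was thus higher with Cxcr4 in embryonic mesoderm and haemato-endothelial nuclei and lower in anterior streak nuclei. Overlap of separate intervals does not test a difference, here or for Cxcr4 with Ackr3. In visceral endoderm the intervals did not overlap, at 12.7% (5.65 to 23.5, on 8 nuclei with both) and 1.97% (1.34 to 2.81). Aplnr was in 2.40% of nuclei there, no more than the 2.52% of extraembryonic ectoderm, the background class. These shares were not thinned, and no association is drawn from them. In streak nuclei the intervals overlapped, at 21.7% (7.46 to 43.7, on 5 nuclei) and 7.67% (6.15 to 9.43). In the streak 153 nuclei (14.01%) had Apln and Cxcl12 together. Apln was in 32.7% of streak nuclei with Cxcl12 (28.5 to 37.1) and 29.2% of those without (25.6 to 32.9), overlapping intervals. They did not overlap in embryonic mesoderm (26.6% and 14.7%), anterior streak (23.6% and 13.2%) and visceral endoderm (43.0% and 29.1%), unthinned. In epiblast and haemato-endothelial nuclei they overlapped, as they did over all nuclei at equal depth (7.81% and 6.87%). Shares of a second gene also depend on each nucleus's depth.

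**Figure D2:**
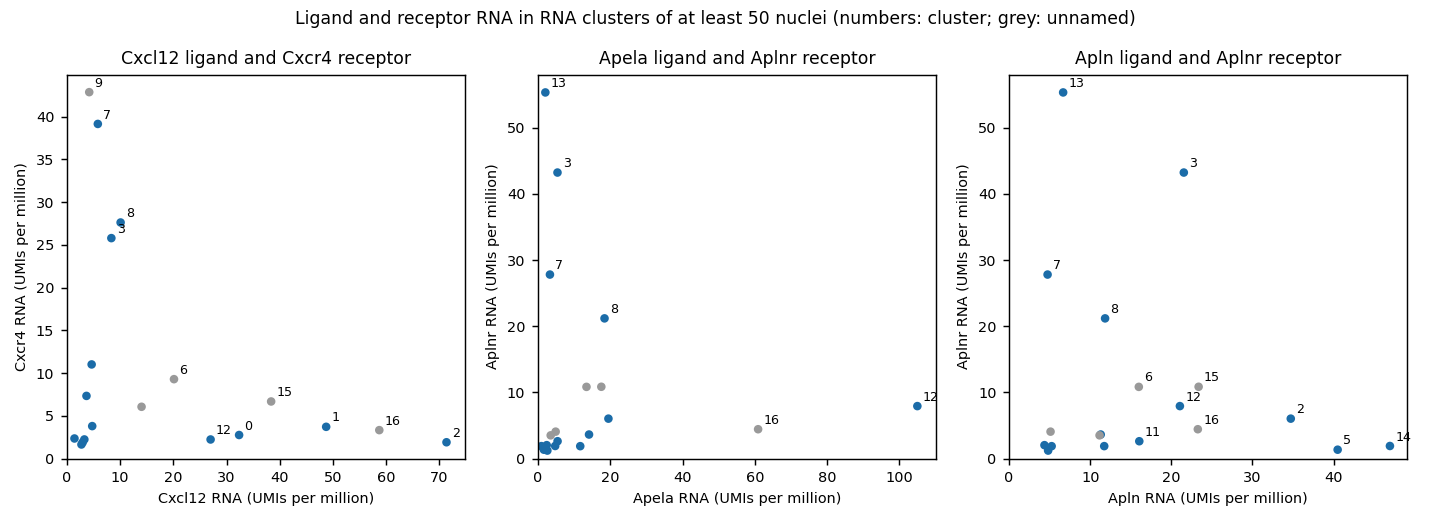
Each point is 1 RNA cluster of at least 50 nuclei, with ligand RNA on the x axis and receptor RNA on the y axis, both in CPM, cluster numbers beside high points and grey for unnamed clusters. Cluster 2 (primitive streak, 71.3 CPM of Cxcl12) lies along the ligand axis, and clusters 9 (42.9 CPM of Cxcr4) and 7 (39.1) lie along the receptor axis.

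Over the 17 accessibility clusters of at least 50 nuclei, log2(CPM + 1) of the receptors ran together: Pearson r was 0.826 for Cxcr4 with Ackr3, 0.775 for Aplnr with Cxcr4 and 0.715 for Aplnr with Ackr3. Among the ligands it was 0.860 for Apela with Cxcl12 and 0.293 for Apln with Cxcl12. Across the pairs of ligand and receptor it was 0.207 for Apela with Aplnr, 0.197 for Apln with Aplnr and -0.22 for Cxcl12 with Cxcr4. These coefficients describe 17 clusters of 1 library that share its depth, and they are given without a p. Of 14374 genes, those whose pattern was most like that of Aplnr were Col13a1 (0.954), Daam2 (0.948), Fbn2 (0.943), Rftn1 (0.943) and Gm48159 (0.941). Near to Cxcr4 were Nrp1 (0.933), a co-receptor for semaphorins and VEGF, Asb4 (0.925), Cfc1 (0.904), a co-receptor of Nodal, and Rarb (0.898), a retinoic acid receptor. Ackr3 was closest to Cacna2d3 (0.942), Kif26b (0.890), Gfpt2 (0.869), A930009A15Rik (0.868) and Midn (0.860). For Apela the list was Erbb4 (0.928), Stat4 (0.928), 2610316D01Rik (0.927), Shisa6 (0.924) and Negr1 (0.923). For Cxcl12 it was Snph (0.974), Sphkap (0.965), Kif5c (0.964), Jakmip2 (0.963) and 5330434G04Rik (0.962). Apln, with its split sources, had no gene as close, with Camk2d (0.778), Stk32b (0.776), 4933439K11Rik (0.774), Pappa (0.756) and Ntn1 (0.749) nearest.

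Accessibility near each gene was read in the RNA class with its highest RNA, in CPM of peak counts (a peak's counts per 1000000 peak counts of the class), for peaks with at least 200 counts. At least 2-fold higher there were 4 of 11 Aplnr peaks in haemato-endothelial nuclei (8.56% of 171487 peaks), 2 of 13 Apela peaks in anterior streak nuclei (7.62%), and 1 of 11 Apln peaks in visceral endoderm nuclei (13.0%). For Cxcl12 it was 3 of 15 in streak nuclei (2.01%), and in extraembryonic mesoderm nuclei it was 13 of 23 for Cxcr4 and 4 of 14 for Ackr3 (9.15%). In all, 27 of 87 were. Neighbouring peaks are not independent. The Apln share was below that of all peaks, and 5 of its 11 peaks were at least 2-fold lower in visceral endoderm, close to the 41.8% of all peaks that were.

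The Apela promoter peak, chr8:65036846-65037732, had 15.4 CPM of peak counts in anterior streak nuclei against 8.34 elsewhere, 1.85-fold (1.55 to 2.20). It was about as open in visceral endoderm nuclei, at 14.95 CPM, and Apela RNA in that RNA class stood at 2.90 CPM. The distal peak chr8:65046300-65047168, centred at -9.40 kb, was 2.56-fold higher in anterior streak nuclei (2.21 to 2.95, with 23.9 against 9.34 CPM). It was highest in the small parietal endoderm RNA class, at 34.5 CPM, most of whose nuclei were visceral endoderm-like by accessibility. A further Apela peak at -16.2 kb, chr8:65053141-65053935, was 2.28-fold higher on 35 counts in the class (1.33 to 3.71).

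The Apln promoter, chrX:48034453-48035319, had 13.3 CPM in visceral endoderm and 12.6 in streak nuclei, its 2 classes of highest RNA, and 11.4 in epiblast nuclei, whose Apln RNA was lower. It stood at 4.20 CPM in extraembryonic ectoderm. The distal Apln peaks differed between these classes. The peak at 17.8 kb, chrX:48016574-48017473, had 0.529 CPM in visceral endoderm against 6.57 elsewhere, a ratio of 0.0805 (0.0346 to 0.159), and 11.3 and 10.6 CPM in epiblast and streak nuclei. The peak at 28.6 kb, chrX:48005737-48006754, was lower in visceral endoderm too, with a ratio of 0.230 (0.109 to 0.429), and highest in haemato-endothelial nuclei at 10.7 CPM. Outside the naming rule, and picked after the values were seen, chrX:48064170-48065070 at -29.8 kb was the 1 Apln peak of at least 200 counts that was at least 2-fold higher in visceral endoderm, at 21.5 against 4.99 CPM (4.32-fold, 3.75 to 4.97), with streak nuclei next among the larger classes at 9.27. On 123 and 134 counts, the peaks at -5.35 and -3.73 kb were 8.42-fold (5.02 to 14.2) and 3.56-fold (2.13 to 5.83) higher there. Picked the same way, the peak chrX:48071755-48072704 at -37.4 kb had 24.2 CPM in streak and 21.9 in epiblast nuclei against 3.84 in visceral endoderm. Which gene these peaks act on was not tested.

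The Cxcl12 promoter, chr6:117168090-117168938, was 1.54-fold higher in streak nuclei (1.37 to 1.73; 22.7 against 14.7 CPM), a smaller difference than that of the RNA. It stood at 19.0 CPM in epiblast and 17.6 in embryonic mesoderm nuclei. The same RNA classes differed more in Cxcl12 RNA, at 71.3 CPM in streak, 38.8 in epiblast and 8.34 in embryonic mesoderm nuclei. At 30.6 kb, chr6:117198673-117199582 was 3.68-fold higher in streak nuclei (3.04 to 4.45), at 11.4 CPM against 4.25 in epiblast and 0.494 in visceral endoderm nuclei. At 27.7 kb, chr6:117195782-117196776 went the other way, with 0.452 CPM in streak nuclei (ratio 0.232, 0.0921 to 0.486) and 9.83 and 9.70 CPM in haemato-endothelial and extraembryonic mesoderm nuclei, where Cxcl12 RNA was low. The pair of peaks lies within a few kilobases and had opposite orders of classes.

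The Aplnr promoter, chr2:85135754-85136674, was most open in embryonic mesoderm nuclei at 58.3 CPM, followed by extraembryonic mesoderm at 39.6, anterior streak at 29.0, primitive streak at 28.2 and haemato-endothelial nuclei at 27.8. It stood at 5.22 CPM in visceral endoderm. In haemato-endothelial nuclei, with the highest RNA level by RNA class, it did not differ from all other nuclei (1.20-fold, 0.945 to 1.499). Of the 11 peaks near Aplnr with at least 200 counts, 4 were at least 2-fold higher there, including a peak at 24.4 kb that lies at the promoter of Gm13713. At 4.88 kb, chr2:85140739-85141470 had 30.8 CPM in haemato-endothelial nuclei against 1.07 elsewhere, 28.8-fold (21.8 to 37.7), with 5.19 in extraembryonic and 2.12 in embryonic mesoderm. At 27.5 kb, chr2:85163259-85164181 was 9.46-fold higher (6.59 to 13.3), and its nearest start is that of Gm13713. A peak at -4.57 kb, chr2:85131277-85132036, chosen after its values were seen, was shared by all 3 mesodermal classes, with 54.0 CPM in embryonic mesoderm, 50.9 in extraembryonic mesoderm and 48.4 in haemato-endothelial nuclei, and 6.17 in epiblast. So the region around Aplnr had peaks open across mesoderm and others open mainly in haemato-endothelial nuclei. Which gene they act on was not tested.

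Cxcr4 had the broadest set of peaks higher in its leading class, with a median log2 fold of 1.17 over 23 peaks. Its promoter peaks chr1:128591985-128592827 and chr1:128593056-128593867 were 1.86-fold (1.58 to 2.17) and 2.64-fold higher (2.27 to 3.07) in extraembryonic mesoderm nuclei. Both together had 53.6 CPM there, 38.9 in haemato-endothelial, 38.8 in embryonic mesoderm and 25.7 in streak nuclei. The streak promoter was open at a level near that of all other nuclei (0.989-fold, 0.888 to 1.10), while Cxcr4 RNA in the streak RNA class had a ratio of 0.163 (0.110 to 0.234). The distal peak at 39.1 kb, chr1:128552852-128553498, was 12.2-fold higher (9.22 to 16.1), with 12.1 CPM in extraembryonic mesoderm, 5.64 in haemato-endothelial, 2.51 in embryonic mesoderm and 0.0695 in streak nuclei. At -47.8 kb, chr1:128639656-128640547 was 7.36-fold higher (6.17 to 8.75), and there embryonic mesoderm nuclei followed closely with 22.5 CPM against 27.1, and streak nuclei had 1.25.

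The Ackr3 promoter was more open in 1 class high for Ackr3 RNA and less open in another. Both promoter peaks together had 55.4 CPM in anterior streak nuclei (1.40-fold, 1.28 to 1.53), where RNA by RNA class was 16.2 CPM, and 31.5 CPM in extraembryonic mesoderm (0.759-fold, 0.660 to 0.870), where it was 21.6. The peak chr1:90202163-90203035 was lower in extraembryonic mesoderm nuclei than elsewhere (ratio 0.635, 0.526 to 0.760) and most open in anterior streak nuclei at 39.9 CPM, while chr1:90203633-90204441 at the start showed no difference (1.03-fold, 0.825 to 1.27). A distal peak at -37.2 kb, chr1:90166381-90167273, was 7.28-fold higher (5.37 to 9.78), at 9.70 CPM against 3.10 in visceral endoderm and 2.18 in haemato-endothelial nuclei, with 13.2 in parietal endoderm. At 42.6 kb, chr1:90246182-90246919 was lower (ratio 0.114, 0.0137 to 0.415, on 3 counts in the class) and highest in visceral endoderm at 5.92 CPM. Ackr3 RNA in the parietal endoderm RNA class, mostly visceral endoderm-like by accessibility, was 4.36 CPM.

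**Figure D3:**
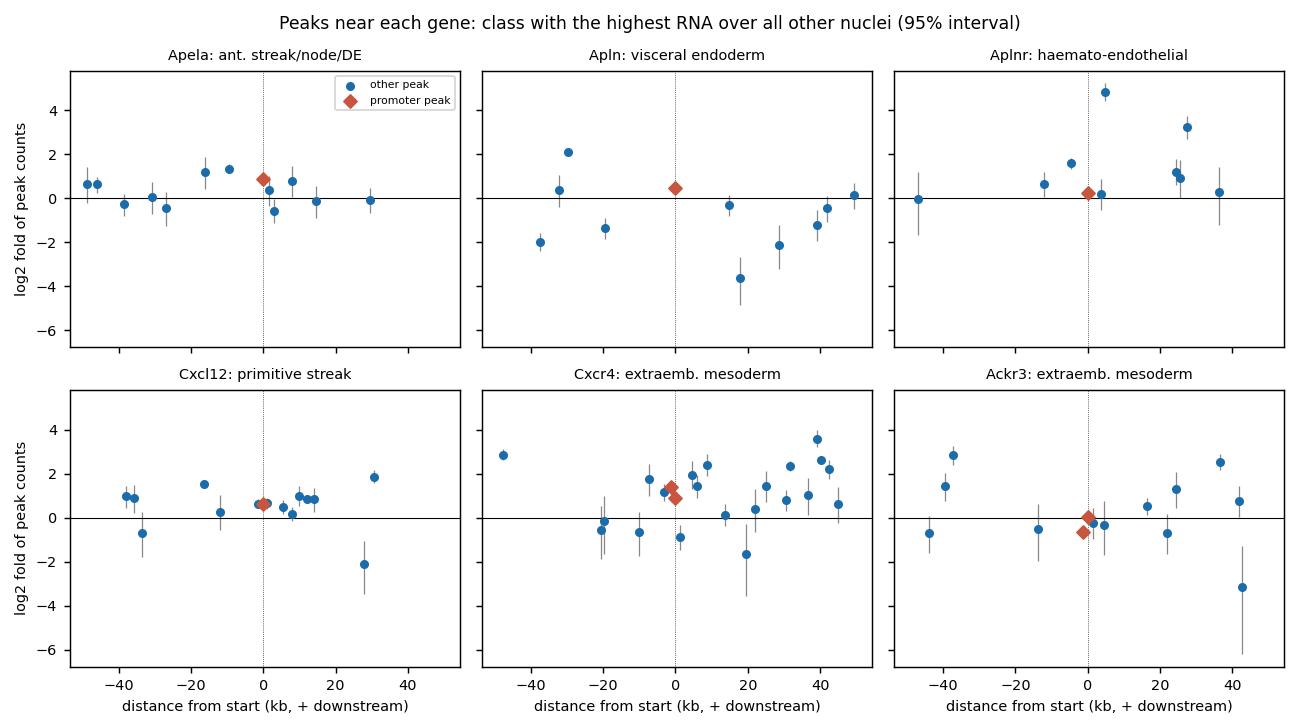
For each gene, log2 fold of peak counts in the RNA class with its highest RNA over all other nuclei (y axis, 95% intervals) against the distance of the peak centre from the start in kb (x axis), for peaks with at least 200 counts and with diamonds for promoter peaks. Most Cxcr4 peaks lie above 0, while the Apln peaks lie on both sides of it.

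**Figure D4:**
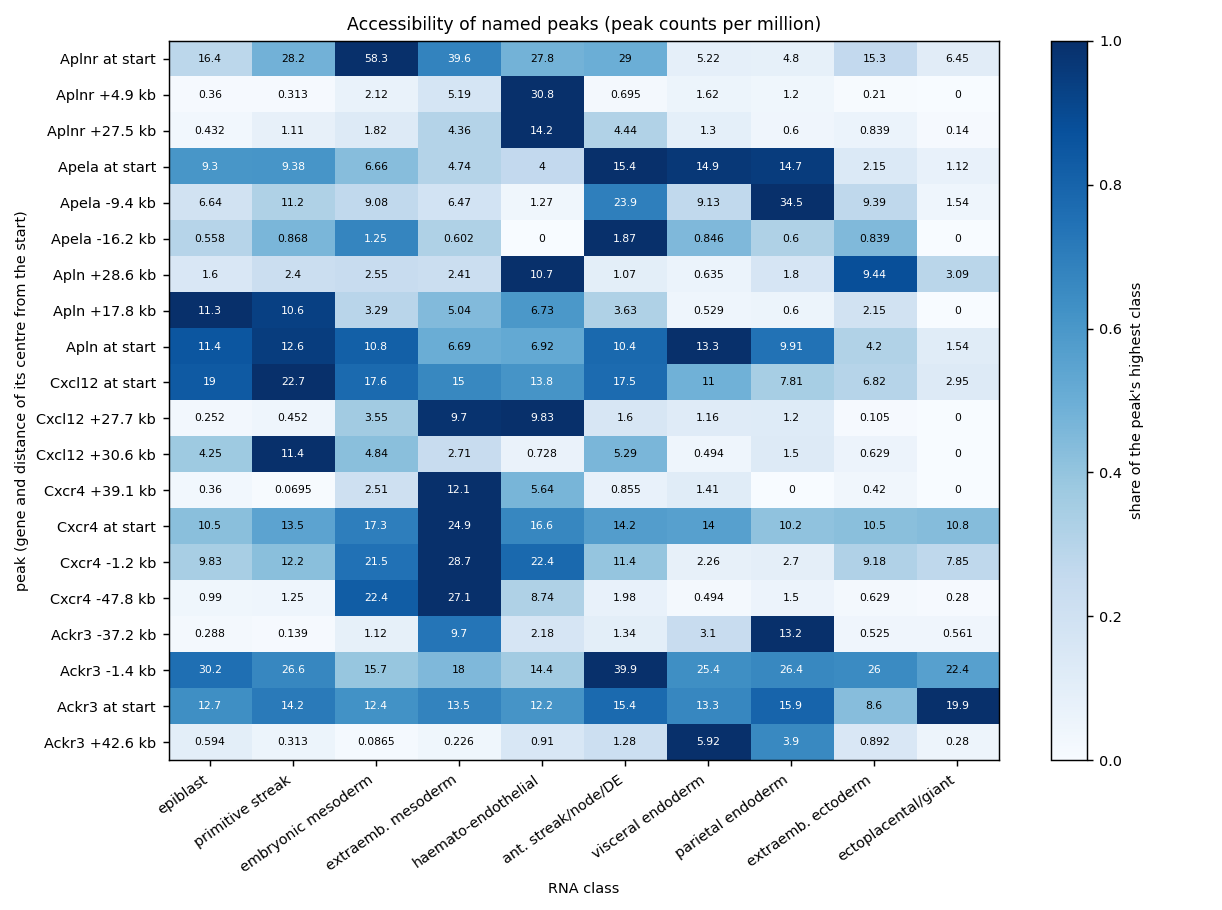
CPM of peak counts of each promoter peak and each distal peak named by the rule (rows, named by gene and distance from the start) in the RNA classes (columns), shaded by the share of the row's highest class. The Aplnr peak at 4.88 kb is dark only in haemato-endothelial nuclei (30.8 CPM), while the Ackr3 and Cxcl12 promoters are spread over most classes.

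Genes around the 2 systems were taken from 6 lists of 61 genes and read in embryonic mesoderm-like nuclei, where Aplnr was highest. With 50 of them at 50 UMIs or more, 10 were at least 2-fold higher (against 6.11% of all genes) and 9 lower (against 15.2%). The median log2 fold was 0.11, against -0.06 over all genes. Of the lists, relatives of the receptors had 1 of 9 higher, Cxcr5 (2.84-fold, 1.92 to 4.13, on 39 UMIs in the class). Ccr7 came next, on 12 UMIs (1.94-fold, 0.941 to 3.69), and Agtr1b was lowest, with a ratio of 0.694 (0.396 to 1.14). Both intervals include 1. Other CXC ligands had none of 3 higher: Cxcl14 and Cxcl16 had ratios of 0.629 (0.281 to 1.23) and 0.581 (0.354 to 0.904), and Cxcl10 had 0 UMIs in the class and 57 elsewhere.

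Enzymes that process or clear the ligands had 1 of 5 higher and 2 lower. Pcsk5, a proprotein convertase, had 237.7 CPM against 46.3, or 5.14-fold (4.93 to 5.35). It was higher still in the haemato-endothelial accessibility class, at 566.2 CPM. That class mixes haemato-endothelial and extraembryonic mesoderm RNA names. Pcsk5 was a leading gene of the extraembryonic mesoderm RNA cluster and not of the haemato-endothelial one. Mme, the peptidase neprilysin, was next at 1.18-fold (1.01 to 1.37). Pcsk6, another convertase, named after its value was seen, was lower, with a ratio of 0.206 (0.170 to 0.247), and highest in extraembryonic ectoderm at 173.7 CPM. Furin, also a convertase and named the same way, had 14.9 CPM in embryonic mesoderm against 25.4, a ratio of 0.587 (0.512 to 0.670). Dpp4, a surface protease that cuts and inactivates Cxcl12, had 8.82 CPM in embryonic mesoderm, 12.3 in epiblast and 10.9 in streak nuclei, against 425.8 in visceral endoderm and 414.1 in the unnamed nuclei. Dpp4 RNA was thus low in the classes with Cxcl12 and high in the layer around them.

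Of 13 genes of G protein and arrestin coupling, 2 were higher and 3 lower. Grk3, a kinase of active receptors, was 2.9996-fold higher (2.75 to 3.27), and Arrb1, a beta-arrestin, 2.35-fold (2.15 to 2.57). Arrb2, the other beta-arrestin of the list, named after its value was seen, was lower, with a ratio of 0.446 (0.352 to 0.557). Rgs3, which shortens G protein signals, had a ratio of 0.267 (0.204 to 0.343). Of 10 genes of Rac signalling and adhesion, 3 were higher and 1 lower. Fn1, fibronectin, was 5.46-fold higher (5.37 to 5.55), its integrin subunit Itga5 2.69-fold (2.56 to 2.84) and Prex1, a Rac activator named after its value was seen, 2.22-fold (2.09 to 2.36), while Dock2 had 5 UMIs in the class. Of 10 other migration cues and receptors, 3 were higher and 2 lower. Pdgfra (5.66-fold) was a marker used to name this class and is no independent observation. Fgf4, a ligand that acts in gastrulation, was 4.31-fold higher (3.51 to 5.29), Kdr, a VEGF receptor and a marker of the haemato-endothelial list, also named after its value was seen, 4.15-fold (3.93 to 4.37), and S1pr1, a receptor of sphingosine 1-phosphate, had a ratio of 0.261 (0.138 to 0.451).

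**Figure D5:**
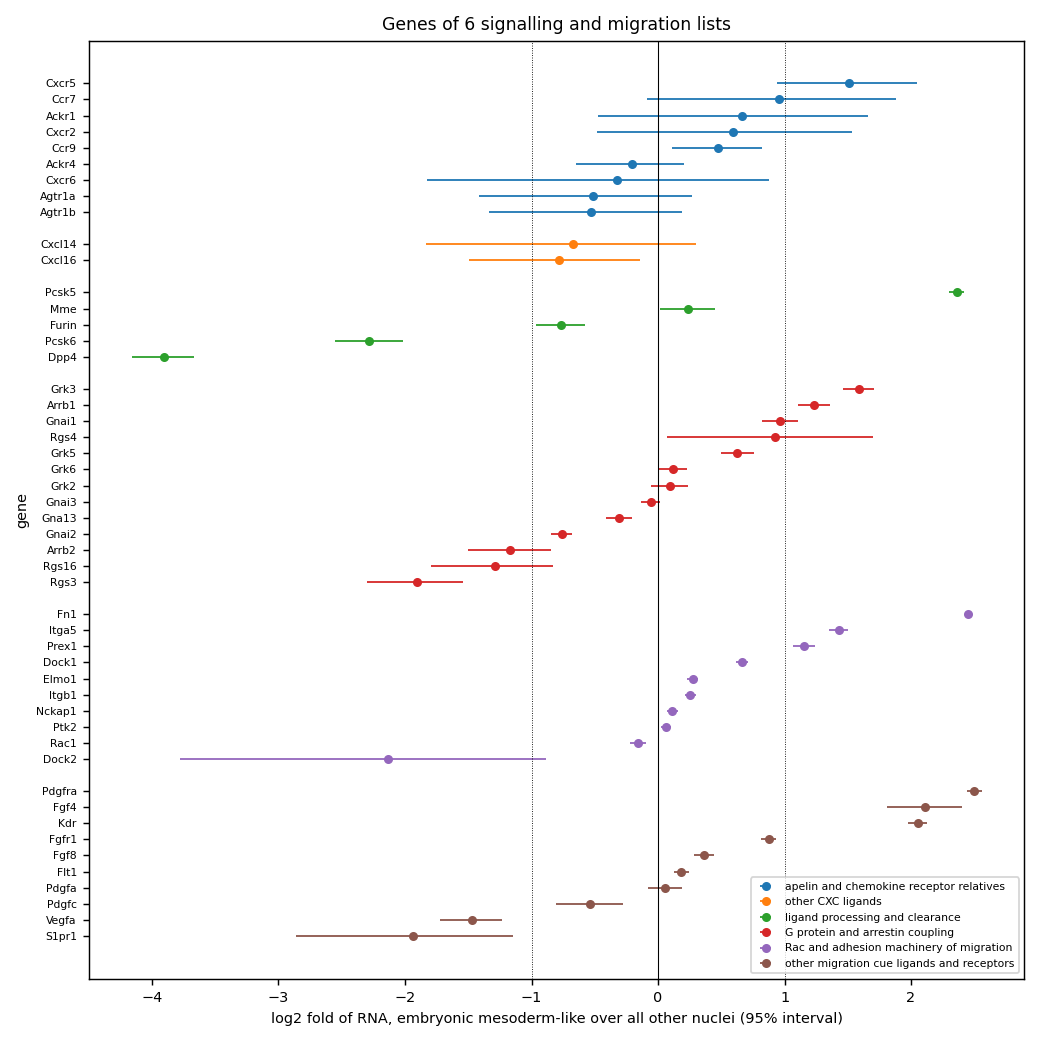
Log2 fold of RNA in embryonic mesoderm-like over all other nuclei (x axis, 95% intervals) for the genes of 6 lists with at least 50 UMIs (y axis, coloured by list), with dotted lines at 2-fold. Pdgfra, Fn1 and Pcsk5 lie farthest to the right and Dpp4 farthest to the left, and Cxcl10, with 0 UMIs in the class, is not drawn.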

How the data were processed

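The deposited values were whole-number counts in 1 sparse matrix, not normalized: UMI counts per gene and counts per peak. Cell Ranger ARC 2.0.0 and mm10 are named in the submitters' processing notes. The peak caller and any barcode filter are not given in the sources used here. Nuclei needed 1000 UMIs, 1000 peak counts and 500 genes, with mitochondrial UMIs capped at 20%, and Scrublet calls in scanpy 1.11.5 were removed (1154 over all barcodes). RNA (2000 variable genes, 30 components) and peaks seen in 50 nuclei (30 components) were clustered apart with leidenalg 0.10.2 at resolution 1 and 15 neighbours. How clusters were scored for names was decided with the data in view. Intervals were Poisson for levels, exact binomial for shares and conditional binomial for folds, and for peaks came from estimated fragments (counts divided by 2). A promoter ran from 1000 bp before to 100 bp after a start. Fold scripts were tested on simulated data. With 1 library per assay no p-value was computed. Members, lists and rules were chosen with earlier results of these data known. Named were the members, the 5 genes most like each (at least 200 UMIs; 1 of them is not reported here), in each list the 2 highest and the 1 lowest by fold, and others where the text says so, promoter peaks, and per gene the 2 distal peaks of largest absolute fold. Alternatives were all barcodes, a filter of 2000 UMIs and 2000 peak counts, doublet calls kept, resolutions 0.5 and 2, 20 components, classes from the assay that was read, wider promoters, fragments, 25 kb windows and no minimum of UMIs.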

Additional observations from a re-analysis of the deposited data

How the results depend on the processing

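No RNA or promoter fold in a leading class changed direction under the alternatives run. Of the log2 folds of RNA, Aplnr in embryonic mesoderm (2.54) moved to 2.70 with 2000 UMIs and 2000 peak counts and to 2.30 with 20 components. Cxcr4 there (1.73) moved to 1.93 at resolution 0.5 and 0.91 with 20 components. Ackr3 in haemato-endothelial nuclei (2.10) moved to 0.87 with doublet calls kept, 1.17 and 1.16 at resolutions 0.5 and 2, and 0.91 with 20 components. In primitive streak nuclei Apln (1.62) moved to 1.44 at resolution 2 and Cxcl12 (1.99) to 1.87 with all barcodes. With classes from RNA itself the values were 2.58 for Apela (2.25), 1.31 for Apln, 2.22 for Cxcl12, 1.502 for Cxcr4 and 0.81 for Ackr3. The cause of these moves was not tested. With classes from accessibility the Cxcl12 promoter moved from 0.62 to 0.81, and the Cxcr4 promoter (1.14) to 0.86 with 20 components and 0.89 in the wider window. The Ackr3 promoter, at -0.40, moved in none of the 5 alternatives that gave a value. No extraembryonic mesoderm class was named with the stricter filter, with doublet calls kept, at resolution 0.5 or from accessibility, so those settings give no Cxcr4 or Ackr3 promoter value. The 27 of 87 peaks at least 2-fold higher became 13 of 50, 13 of 54, 10 of 50 and 13 of 50 there. Peaks of those genes drop out in these settings, and how much of the change that makes was not tested. With estimated fragments 18 of 62 were higher, and within 25 kb 15 of 50. With doublet calls kept, 0.993% of nuclei had Apela with Aplnr and 1.15% Cxcl12 with Cxcr4. The count of list genes higher in mesoderm, 10, ranged from 9 to 13 in 8 alternatives; which genes these were was not compared. Depth limits the low levels: 0 UMIs in a class does not show that a gene is absent there. Both assays were read from the same nuclei, but each had 1 library, so samples could not be compared and no test was run.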
